A study of Drosophila melanogaster with 4 samples.

Results

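The 8 Hox genes of Drosophila melanogaster lie in 2 clusters on chromosome arm 3R. The Antennapedia complex holds lab, pb, Dfd, Scr and Antp, and the bithorax complex holds Ubx, abd-A and Abd-B. Hox genes encode homeodomain transcription factors that give the segments of the body their identity, in an order along the chromosome that follows the body from head to tail. Both complexes are textbook targets of the Polycomb system, which keeps each gene silent in the segments where it does not act, and of the trithorax system, which keeps it active where it does. H3K79me1, a single methyl group on lysine 79 in the core of histone H3, is added by enzymes of the DOT1 family, in the fly by grappa (gpp). In flies and other animals, methylation of this lysine typically follows transcription along gene bodies.

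The 2 clusters were taken as release 5 intervals of 3R, from 2.48 to 2.83 Mb (350 kb) for the Antennapedia complex and from 12.48 to 12.81 Mb (330 kb) for the bithorax complex. The members are the 8 genes, and the H3K79me1 data on them are all deposited regions that overlap these intervals, clipped to them. There were 4 such regions of 5484 in ChIP replicate 1, 10 of 5107 in ChIP replicate 2 and 16 of 5330 in the list for the replicate set.

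The series has 4 ChIP-seq samples, of which 2 are immunoprecipitates with an H3K79me1 antibody and 2 are inputs, that is, chromatin taken before the antibody step. All 4 came from whole wild-type Oregon-R embryos (the Oregon-R-modENCODE stock) at 14 to 16 h of development, fixed with 1.8% formaldehyde and given no further treatment. The lists do not separate cell types or segments, so a region is an average over cells in which a Hox gene is active and cells in which it is silent. The score given with each region is the authors' own and has no named scale. Read counts are not in the lists, and the sequencing depth is therefore unknown. An uncovered stretch is one in which the authors listed no region, which is not a measurement of zero signal.

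Both Hox complexes were almost free of H3K79me1 regions. Regions covered 2.19% of the Antennapedia complex in replicate 1 and 4.43% in replicate 2, a mean of 3.31% ± 1.58 (SD, n = 2). They covered 0.286% of the bithorax complex in replicate 1 and 2.45% in replicate 2, a mean of 1.37% ± 1.53 (SD, n = 2). Taken over both intervals, the covered share was 2.37% ± 1.56, against 33.8% ± 1.00 for the rest of 3R (SD, n = 2 each). The share in the complexes was thus 0.0383 of that on the rest of the arm in replicate 1 and 0.101 of it in replicate 2. The replicate set gave 4.35% for the complexes, against 37.7% for the rest of 3R. The 2 replicates spread widely in relative terms, but the gap to the rest of the arm was many times either SD. With 2 libraries the smallest p of an exact sign-flip test is 0.5, so this difference carries no p.

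**Figure D1:**
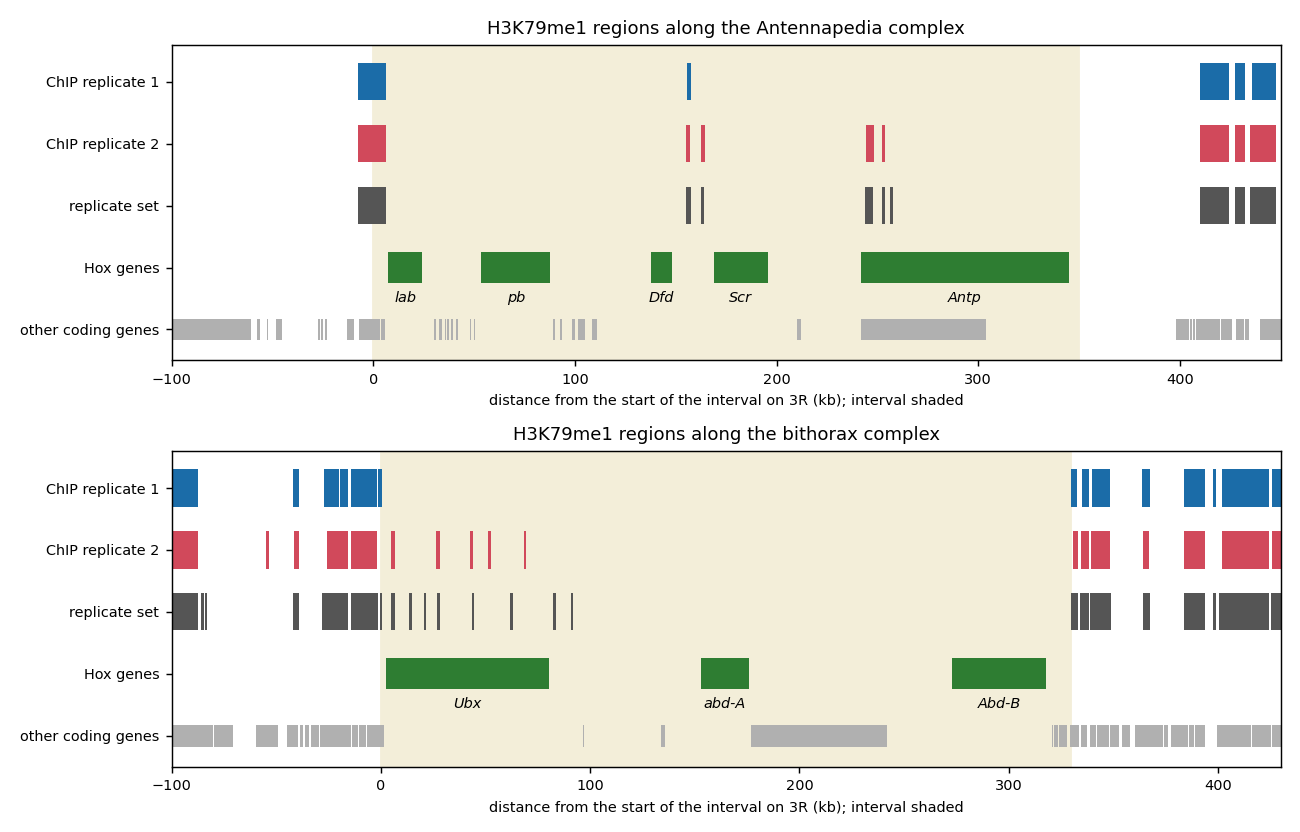
H3K79me1 regions (bars) in ChIP replicate 1, ChIP replicate 2 and the replicate set along the 2 complexes, with the Hox genes and the other protein-coding genes under them. The horizontal axis is the distance in kb from the start of each interval (shaded) and reaches 100 kb beyond it on either side. A single region of at least 10 kb, over Taf1, enters the shaded intervals, and the bars over Antp and Ubx are narrow and absent from replicate 1.

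Long stretches of 3R with so little of the mark were uncommon. Windows of the same length as each complex were laid along the rest of 3R in steps of 10 kb, so that neighbouring windows overlap and are not independent. The Antennapedia complex, at 3.31%, compares with window medians of 32.3% in replicate 1 and 33.9% in replicate 2. Of the 2620 windows elsewhere, 21 (0.802%) had a lower share than the complex in replicate 1 and 56 (2.14%) in replicate 2. The bithorax complex, at 1.37%, compares with medians of 31.8% and 33.8% over 2626 windows. In replicate 1 only 2 of those windows were lower, and in replicate 2 there were 28 (1.07%). Neither complex was the emptiest place of its length on 3R in either replicate: the lowest 350-kb window had 0.675% and 0.680%, and the lowest 330-kb window had 0% and 0.405%.

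**Figure D2:**
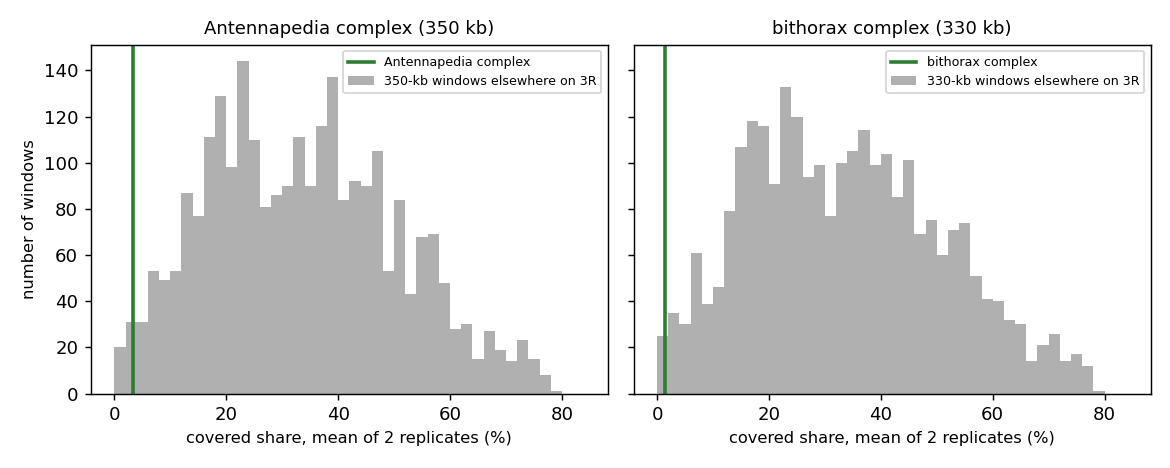
Covered share (mean of 2 replicates, in %) of each Hox complex (green line) and of all same-length windows elsewhere on 3R (grey histogram, number of windows per 2-point bin, steps of 10 kb). The Antennapedia complex lies at 3.31% and the bithorax complex at 1.37%, near the low end of windows whose medians lie above 30%.

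Gene content differed along with the covered share. The Antennapedia interval overlapped 24 protein-coding genes, against a median of 43 in the windows elsewhere, and the bithorax interval 11, against 40. Gene bodies still spanned 61.7% of the Antennapedia interval and 67.1% of the bithorax interval, against medians of 71.8% and 71.7% elsewhere. Among the 190 windows elsewhere with no more genes than the Antennapedia interval, the median covered share was 17.2%, and 7 were as low as the complex or lower. Only 3 windows had no more genes than the bithorax interval, with shares of 1.69% to 30.8%, and none was as low as the complex. The part that gene content has in the low shares was not tested beyond these values.

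At the scale of 10 kb, most of both complexes was empty. Of the 35 windows in the Antennapedia complex, 30 had no covered base in either replicate, and of the 33 in the bithorax complex 27 had none. Together these are 57 of 68 windows (83.8%), against 47.0% of the 2722 windows elsewhere on 3R. At the other end, 1 of the 68 windows was at least 50% covered in both replicates, against 32.3% of the windows elsewhere. That window holds the end of the Taf1 region at the edge of the Antennapedia complex, and the bithorax complex had no such window.

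A region of 13.9 kb lay across the left edge of the Antennapedia complex. It spanned 2472110 to 2486003 in replicate 1, and 2472145 to 2486046 in replicate 2. Its inner end thus differed by less than 0.1 kb between the libraries. The lists hold no read counts, so how steeply the signal falls there cannot be seen. The region covered 100% of Taf1 (the largest subunit of the general transcription factor TFIID) and of CG1307, twr and agt in both replicates. The genes next to it on the outer side, Ass, CG31286, sunz, CG15177 and sowi, had 0% in each list. The score of the region ranked at the 94.6th percentile of the list in replicate 1 and at the 91.4th in replicate 2. The body of lab, the most proximal Hox gene, began 1.15 kb beyond the end of this region in replicate 1 and 1.10 kb beyond it in replicate 2, and carried no covered base. These distances rest on gene ends placed by an offset that was checked only over many genes together, in steps of 500 bp. The error of a single gene end was not measured. On the other side of the complex, the nearest region after Antp lay 65.1 kb away in both replicates, starting at 2890034 in replicate 1 and at 2890072 in replicate 2.

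The bithorax complex had marked chromatin close to both of its ends. The 100 kb to its left were covered to 40.7% in replicate 1 and 38.7% in replicate 2, and the 100 kb to its right to 55.9% and 54.9%. On the left, CCT3 (a chaperonin subunit) and 5 of its neighbours, among them nonA-l and Mettl4, were 100% covered in both replicates. Next to them modSP, a protease of the Toll pathway, was covered to 67.5% in replicate 1 and 0.497% in replicate 2. Here the libraries disagreed: the last region before Ubx ended 1.73 kb from the gene in replicate 1 and 4.16 kb from it in replicate 2. On the right, the first region beyond Abd-B lay 11.7 kb away in replicate 1 and 12.6 kb away in replicate 2, over CG18622. The flanks of the Antennapedia complex were covered less. The 100 kb to its left were covered only to 7.89% and 7.86%, and the 100 kb to its right to 31.0% and 32.4%. The rest of 3R was covered to 33.1% and 34.5%, near the values of that right flank. The distance to the nearest region did not differ in this way, since the Taf1 region ended 1.15 kb and 1.10 kb from lab.

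The longest uncovered stretch that overlapped either complex was that of the bithorax complex. In replicate 1 it began at 12480618, ended at 12809673 (329 kb) and took in all of Ubx, abd-A and Abd-B, the third longest of 1185 uncovered stretches on 3R, whose median is 2408 bp. In replicate 2 it ran from 12549531 to 12810598 (261 kb) and left out most of Ubx, the fifth longest of 1057. In the Antennapedia complex the longest spanned 253 kb in replicate 1 (2637428 to 2890033) and 156 kb in replicate 2 (2733795 to 2890071). Both ran on past the upper end of the interval, and they ranked 7 and 26 from the longest on 3R. In the replicate set the longest stretch had 238 kb (rank 9) for the bithorax complex and 152 kb (rank 23) for the Antennapedia complex.

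The next question was how the mark was spread over the single genes. Gene ends were placed from a release 6 annotation by the offset that holds on 3R. Of the 8 Hox genes, 6 had no covered base in either replicate or in the replicate set, and in replicate 1 none of the 8 had one. For comparison, 35.4% of the 435 other protein-coding genes of 3R of at least 10 kb had no covered base in either replicate, and each Hox gene exceeds 10 kb. None of the 8 was at least 50% covered in both replicates, against 37.2% of those 435 genes. With 8 genes in 2 clusters, the members are not independent of each other, and the count is a description.

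The genes of the head and the anterior trunk were uncovered throughout. lab, which acts in the intercalary segment and the midgut, spans 17.2 kb and had 0% in each list. pb, needed for the adult mouthparts, spans 34.3 kb and had 0% in each list, with the nearest region 47.5 kb away in either replicate. Dfd, which specifies the mandibular and maxillary segments, spans 10.6 kb and had 0%, with the nearest region 7.60 kb away in replicate 1 and 6.85 kb in replicate 2. Scr, which acts in the labial segment and the prothorax, spans 26.9 kb and had 0%, with the nearest region 11.4 kb and 4.32 kb away. No list thus held a region over any of these 4 genes, and Antp was the only Hox gene of the Antennapedia complex with one.

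Antp, which acts in the thorax, is the longest of the 8 at 103 kb. It had 0% in replicate 1 and 5.11% in replicate 2, and in the replicate set 7313 bp of it were covered. The replicate 2 regions ran from 2724561 to 2728303 (3743 bp) and from 2732277 to 2733794 (1518 bp). Both lay near the lower end of the gene, from 2.59 to 6.33 kb and from 10.3 to 11.8 kb inside it, and the replicate set added a region of 1109 bp from 2736468 to 2737576. Antp is read towards lower positions of 3R, so this is the end where its transcripts stop. The same regions lie on CG46458, a gene that the annotation starts at the same lower end and that overlaps Antp over 62118 bp, so the regions cannot be assigned to one of the 2 genes.

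Ubx, which acts in the posterior thorax and the anterior abdomen, spans 77.8 kb. It had 0% in replicate 1 and 10.4% in replicate 2, the highest share of the 8, and the replicate set gave 11.3%. The 5 regions of replicate 2 were 1344 to 2081 bp wide and lay at intervals along the gene. Their centres stood at 4.38%, 32.2%, 52.6%, 63.5% and 85.5% of its length, counted from the lower end, which is again the end where transcripts stop. The replicate set had 6 regions on the gene, of which those from 12484814 to 12486742, from 12506656 to 12508382 and from 12523306 to 12524396 overlapped a region of replicate 2. Another replicate 2 region on Ubx, from 12548187 to 12549530, also falls in the antisense transcript asRNA:PS4, and the strand cannot be told from these data. Neither end of Ubx, nor of any other Hox gene, was covered in a list.

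abd-A and Abd-B, which specify the middle and the posterior abdomen, were uncovered in each list. abd-A spans 22.8 kb, and its nearest region was 152 kb away in replicate 1, 83.4 kb in replicate 2 and 60.9 kb in the replicate set. Abd-B spans 45.0 kb, and its nearest region lay at the upper edge of the interval, over CG18622. Between the upper end of Ubx and the upper end of the interval, no replicate list held a region other than that edge, and the replicate set held 2 narrow ones, from 12562244 to 12563408 and from 12570750 to 12571986, the second of them in lncRNA:bxd. Ordered by the mean of the replicates, Ubx (5.19% ± 7.34) and Antp (2.55% ± 3.61) stood above the other 6 genes at 0% (SD, n = 2). For both genes the SD exceeds the mean, so neither their order nor their place above the other 6 holds beyond the spread of the replicates.

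The regions inside the complexes were narrow and scored low in their lists. Replicate 1 had 1 region wholly inside the intervals, replicate 2 had 9 and the replicate set 13. In replicate 2 the median width of these 9 regions was 1939 bp (range 1344 to 3743 bp), against a median of 5242 bp for the 1048 regions elsewhere on 3R, and the narrowest region of that list is 1301 bp. The percentiles of their scores lay between 5.09 and 32.5, with a median of 15.3. For the 13 regions of the replicate set it was 1519 bp, against 5329 bp elsewhere on 3R, and score percentiles of 2.27 to 35.8. None reached the middle of its list by score, whereas the Taf1 region at the edge ranked at the 95.7th percentile of the replicate set.

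**Figure D3:**
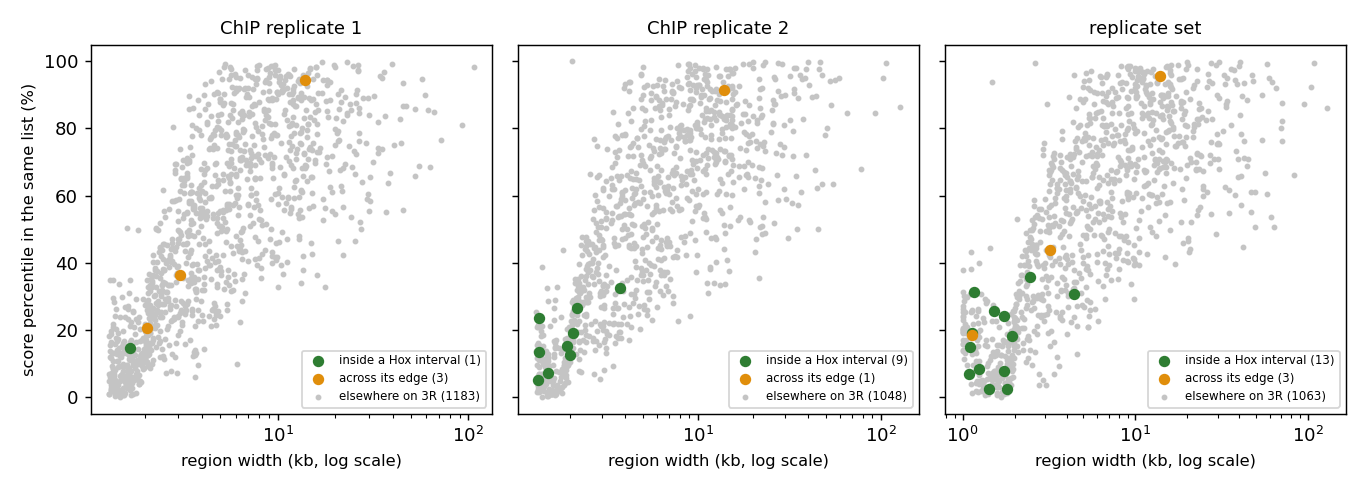
Width (kb, log scale) and score percentile within the same list of each region on 3R, for ChIP replicate 1, ChIP replicate 2 and the replicate set. Regions inside a Hox interval (green) have widths of at most 4.40 kb and percentiles of at most 35.8, and the region across the edge of the Antennapedia complex (orange, upper point) ranks above the 91st percentile in each list.

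Only 1 place inside the complexes was found in both replicates. It lay between Dfd and Scr and spanned 2635752 to 2637427 in replicate 1, against 2634997 to 2637192 in replicate 2. This region falls in the non-coding RNA genes lncRNA:CR42651, of which it covered 22.1% and 29.0%, and lncRNA:CR45915, of which it covered 100% in both. The microRNA gene mir-10, known for its place among the Hox genes of many animals, lies in the same stretch, outside the region of replicate 1 and wholly inside that of replicate 2. The score of the region ranked at the 14.4th and 26.4th percentile. Replicate 2 had a further region nearby, from 2642516 to 2644521, with none in replicate 1.

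The libraries shared little of the sequence that they covered in the complexes. Base pairs in both replicates made up 0.473 of those in either in the Antennapedia complex (7.44 of 15.7 kb) and 0 in the bithorax complex (0 of 9.02 kb), against 0.863 on the rest of 3R. Most of the shared sequence in the Antennapedia complex belonged to the Taf1 region, and when only the upper 50% of each list by score was kept, that region alone was left there and the overlap was 0.993. Of the 13 replicate-set regions inside the intervals, 1 overlapped a region in both replicates, 6 in replicate 2 alone, 0 in replicate 1 alone and 6 in neither. On 3R elsewhere, 786 of 1063 replicate-set regions (73.9%) overlapped a region in both. The replicate set was made from the same libraries, so these shares were not tested. The regions inside the complexes were narrow and scored low, and no comparison with regions of like width or score elsewhere was made.

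Most other genes inside the complexes had no covered base either. This held in both replicates for 53 of the 64 non-Hox genes that the annotation places in or across the intervals, and for 20 of the 27 that code for protein, against 38.8% of the 3352 protein-coding genes of 3R outside the complexes. The other 37 are non-coding, and 33 of them had no covered base. No share over non-coding genes elsewhere is set beside them, so only the coding count has a comparison. Of the 21 non-Hox genes on the list of named genes, coding and non-coding, 19 had none. They include the early patterning genes bcd, zen, zen2 and ftz, the immunoglobulin family gene Ama, the cuticle protein genes Ccp84Aa to Ccp84Ag with Edg84A, and the sugar transporter gene Glut3. In the bithorax complex the non-coding genes lncRNA:iab8 (92.1 kb) and lncRNA:iab4, with mir-iab-4 and mir-iab-8 inside them, had 0% in each list. lncRNA:bxd had 0% in both replicates and 3.98% in the replicate set. The exceptions were mir-10, covered in replicate 2 and the replicate set, and asRNA:PS4, covered in replicate 2, and neither was covered in replicate 1. Of all 64 genes, 6 were at least 50% covered in both replicates. These were Taf1, CG1307, twr, agt and CG18622 at the edges, and lncRNA:CR45915. Among the protein-coding genes it was thus 5 of 27, against 46.9% of the 3352 outside the complexes.

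The other homeobox genes on the list of named genes were divided. Of these 16, 10 had no covered base in either replicate and 4 were at least 50% covered in both. Over all 3352 protein-coding genes of 3R outside the complexes, these shares were 38.8% and 46.9%. The list was written by name, and whether it holds every homeobox gene of 3R was not checked. The neighbouring genes tin, bap, lbe, lbl, C15 and slou were at 0% in both replicates, as were ems, E5, Dr and Ptx1. Among the 4 covered genes was hth, which encodes a homeodomain partner of Hox proteins. It spans 132 kb, longer than any Hox gene, and was covered to 74.8% in replicate 1 and 82.4% in replicate 2. NK7.1 was covered to 70.0% and 76.3%, ro to 90.2% and 85.6%, and the short gene btn to 100% in both. pros, a regulator of neural progenitors, had 8.74% and 7.72%.

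The Polycomb group, trithorax group and insulator genes of the list were well covered. All 3 Polycomb group genes of the list were at least 50% covered in both replicates, against 46.9% of the 3352 protein-coding genes, with 94.0% and 96.2% for Scm, 100% and 78.6% for Sce, and 100% in both for Caf1-55. So were all 7 trithorax group and insulator genes. Among them trx, the founding member of its group, had 76.3% and 80.9%, and mod(mdg4), which encodes insulator proteins, had 53.2% and 73.6%, while mor, ash2, Cp190 and su(Hw) had 100% in both replicates. gpp, the gene for the H3K79 methyltransferase itself, had 31.1% and 44.6%. Of 23 ribosomal protein genes, 10 were at least 50% covered in both replicates, a share near that of all genes, and 3 had no covered base in either.

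**Figure D4:**
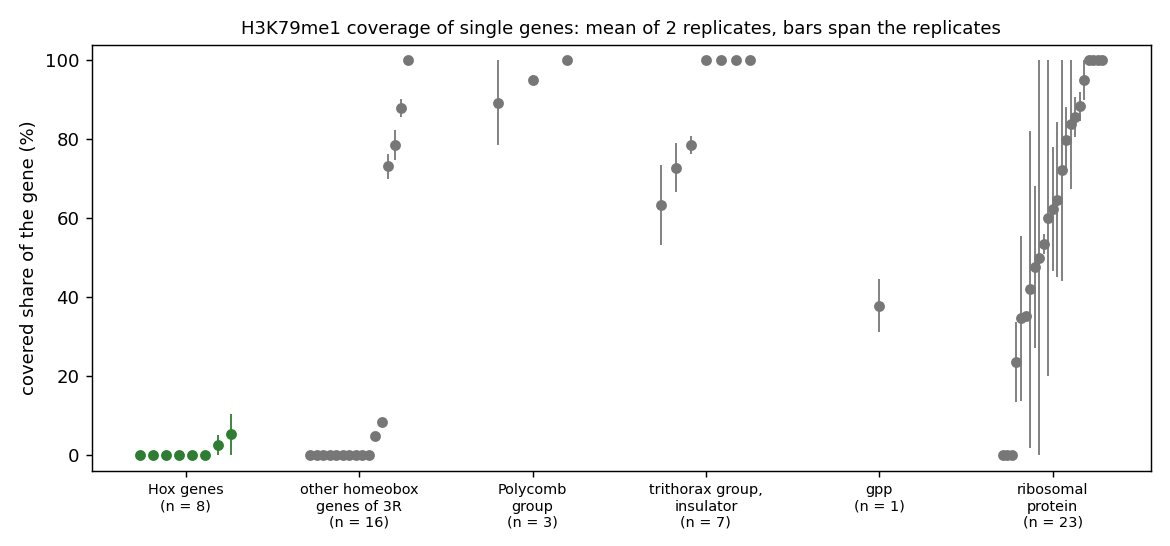
Share of each gene covered by H3K79me1 regions (in %, points are the mean of 2 replicates and bars span both), for the 8 Hox genes and 5 other gene lists of 3R. The Hox genes lie between 0% and 5.19%, while each Polycomb and trithorax group gene has a mean above 60%.

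Among other long genes of 3R, emptiness was not particular to the Hox genes. The profile of each Hox gene of at least 20 kb in 20 equal bins was compared with those of 233 other genes of that length by the mean absolute difference. Those 233 genes include CG46458 and MSAmiP, which lie inside the complexes. The profiles of pb, Scr, abd-A and Abd-B, all at 0, were identical to those of 88 of the 233. MSAmiP, of the bithorax interval, is among the 88, so these are not all genes from elsewhere. The nearest to Antp were Mur89F (a difference of 1.54 percentage points) and tok (1.83), and the same 2 genes were the nearest to Ubx (4.25 and 4.47). Mur89F and tok were nearly empty themselves, with mean shares of 1.01% and 0.721%. The mean shares of Antp and Ubx are 2.55% and 5.19%, so the differences are not small beside them and show no close likeness. By length, 2 of 2 Hox genes of 10 to 20 kb were empty, against 67 of 204 other genes (32.8%). The same held for 4 of 4 Hox genes of 20 to 50 kb, against 68 of 175 other genes (38.9%), and for 0 of 2 above 50 kb, against 19 of 56 (33.9%).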

How the data were processed

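H3K79me1 was measured by ChIP-seq in 2 ChIP libraries, with 2 inputs that entered only through the authors' calls. The submitters' processing notes name Bowtie 0.12.7 as the aligner. Each list holds regions of significant enrichment on FlyBase release 5, per the file headers. No source used here names the caller, its threshold or the way the replicates were joined. The score of each region is the authors' own, as deposited, and was used only to rank regions within its list.

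Positions were taken as 1-based and inclusive. The covered share of an interval, window or gene is the percentage of its bases that lie in regions, computed with Python 3.11.15 and NumPy 2.4.6 and tested on simulated regions. Genes came from a RefSeq table of assembly Release 6 plus ISO1 MT. Its positions minus 4174278 bp gave release 5 positions on 3R. As a check, genes were moved by up to 20 kb in steps of 500 bp, and gene bodies and regions overlapped best within 500 bp of that offset in all 8 segments of 3R examined. The table has no strand, so both gene ends were examined in place of starts. Of 3398 protein-coding genes, 3387 fell on release 5 3R. Promoter motifs were not analysed here.

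All 8 members were named, with the regions and genes of fixed lists. Members, lists and rules were chosen with earlier results of these data known. Nothing in the labels shows separate embryo collections for the replicates, so their SD may be technical.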

Additional observations from a re-analysis of the deposited data

How the results depend on the processing

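With 1 replicate left out, the covered share ranged from 2.19% to 4.43% in the Antennapedia complex and from 0.286% to 2.45% in the bithorax complex. The replicate-set list gave 5.02% and 3.63%. The 50% of regions with the highest scores gave 1.72% for the Antennapedia complex, all of it from the edge, and 0% for the bithorax complex. Taking the outermost Hox gene ends as the interval, a setting chosen after seeing the data, gave 1.65% for the Antennapedia complex. The count of covered windows there was 0 at a threshold of 80% and 0 on a grid moved by 5 kb, since it rests on the Taf1 region. Without either replicate it stayed 1, and that of the bithorax complex 0. Among the top 50% of regions the overlap of the replicates in the Antennapedia complex was 0.993. It could not be computed in the bithorax complex, where no such region was left. For the single Hox genes, 55 of 56 recomputed values equalled the mean of the replicates or lay less than 1 SD from it, where that SD exceeds the mean for Antp and Ubx, and the 6 genes at 0 had 0 in all 42 of theirs. The other value was that of Antp in the replicate set, with 7313 bp covered. These counts are no measure of stability. Of 2 replicates, each lies less than 1 SD from their mean by arithmetic, so values with 1 left out could not fall outside. For the 6 genes at 0, leaving out a replicate or keeping only the highest scores could only return 0. Joining regions less than 1000 bp apart or moving genes by 1 kb could not change them either. The region nearest to any of them in the replicates was 1.10 kb away, next to lab. Only their replicate-set values were free to differ. Antp and Ubx had 0 without replicate 2. No paired analysis was possible because only ChIP lists were used here, although the replicate numbers are shared by ChIP and input samples. Depth is unknown, so weak signal below the authors' threshold cannot be told apart from its absence.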

Other observations

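Places on 3R as poor in the mark as the Hox complexes were few, and were looked up after the values were seen. Windows of 330 kb with a mean share at or below that of the bithorax complex numbered 19 of 2626 (0.724%), and they fell into 3 places. The largest, from 1690001 to 2170000, accounted for 15 of them and holds 22 Osi genes, a clustered family of insect-specific membrane proteins. The same place holds 5 odorant-binding protein genes (Obp). The other two places ran from 3360001 to 3710000 and from 23810001 to 24140000. Windows of 350 kb at or below the Antennapedia complex numbered 45 of 2620 (1.72%) and fell into 2 places, from 1690001 to 2180000 and from 3080001 to 3730000. The second of these holds the clustered carboxylesterase genes alpha-Est1 to alpha-Est10. The places were picked for their low covered share, so the low coverage of the genes in them is no separate finding.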
